A study of Mus musculus with 6 samples.

Results

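The proteasome is the large protease that breaks down ubiquitin-tagged proteins, and its constitutive subunit genes are described here in mouse bone marrow neutrophils. The members were the protein-coding genes of the count table whose symbols begin with Psma, Psmb, Psmc, Psmd, Psme, Psmf or Psmg followed by a digit, without the immunoproteasome subunits Psmb8, Psmb9 and Psmb10. They numbered 47 of the 38887 gene identifiers in the table. The rule used names only and no measured value.

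RNA was sequenced from Ly6G+ cells that had been picked out of bone marrow with beads. The 3 groups were naive mice and mice 1 week and 3 weeks after receiving LL2 cells, a Lewis lung carcinoma line that carried luciferase and was given by intravenous injection to form lung tumors. Each group had 2 libraries, numbered as replicates of different mice, and the methods name purchased C57BL/6 mice, 6 to 8 weeks old, without saying which of them were sequenced. The LL2 mice thus carried a transplanted line and not a tumor that arose in place, and the naive mice received no tumor cells.

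In a proteasome, rings of alpha and beta subunits stack into a hollow core, and Psmb5, Psmb6 and Psmb7 carry its standard proteolytic sites. A cap made of a base, whose ATPases unfold substrates, and a lid, which removes ubiquitin, opens the core, while other activators can dock in place of the cap. In immune cells and under interferon, Psmb8, Psmb9 and Psmb10 take the places of the standard catalytic subunits in newly built cores, which changes the peptides that are produced.

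By role, 7 members form the alpha ring and 7 the beta ring. The base holds 6 ATPases and 3 other members, and the lid holds 8. These 31 genes are called the particle subunits below. Of the others, 3 help to assemble the base (Psmd5, Psmd9, Psmd10), 4 help to assemble the core (Psmg1 to Psmg4), 4 encode activators (Psme1 to Psme4) and Psmf1 encodes an inhibitor. Psma8 and Psmb11 encode forms of core subunits known from testis and thymus. Psme2b is a near copy of Psme2, and Psmc3ip encodes a meiotic recombination factor that is not a proteasome subunit.

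The libraries held between 11994158 and 14127919 counts, and 12259 genes had enough counts to be tested, 46 members among them. Psma8 was left out, with at most 4 counts in any library. Levels are given as CPM, reads of a gene per 1000000 counts in tested genes after TMM scaling between libraries, and 3 counts corresponded to between 0.2 and 0.246 CPM, a limit that covers counting error only. Of markers that define neutrophils, S100a8 and S100a9 had the highest levels, but Ly6g itself stood between 0.491 and 2.14 CPM in all 6 libraries. The summed level of 9 erythroid genes was 569.3 CPM in week 3 replicate 2 and between 1190 and 1497 CPM in the other 5 libraries. The samples are bulk RNA, so that a change in the mix of cells and a change in RNA per cell cannot be told apart.

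Markers of neutrophils and of other cells and stages moved between the groups. Of the 10 neutrophil markers, Camp, Ltf and Ngp were called lower at week 3 than in naive mice (log2 −1.04, −0.64 and −0.51). Cxcr2 and Retnlg were called higher in that comparison (log2 0.70 and 0.44), and Retnlg also at week 1 (log2 0.58). The summed level of 5 early granulocyte genes was 138.1 and 135.2 CPM in naive mice, 151.5 and 195.7 CPM at week 1, and 287.1 and 386.1 CPM at week 3, with Elane, Mpo, Prtn3 and Ctsg higher and Cebpe lower at week 3 than in both other groups. The sum of 10 genes of dividing cells was 572.4 and 551.5 CPM in naive mice, 469.9 and 549.8 CPM at week 1, and 314 and 326.2 CPM at week 3. At week 1 against naive mice, Top2a of this list was called lower and Tyms higher (log2 −0.59 and 0.74). The sum of 10 B lineage genes was 62.2 and 48.95 CPM, 61.88 and 48.33 CPM, and 14.19 and 12.46 CPM. The sum of 6 eosinophil, basophil or mast cell genes was 21.84 and 26.11 CPM in naive mice, 41.05 and 44.97 CPM at week 1, and 17.45 and 22.92 CPM at week 3. Of these, Ms4a2 was at or under 3 counts in every library, and Prg2, Mcpt8 and Cpa3 were called higher at week 1 than in naive mice and lower at week 3 than at week 1. Siglecf, of the same list, went the other way. Its log2 fold change was −0.85 at week 1 against naive mice, without a call. It was called higher at week 3 than at week 1 (log2 1.52, edgeR adjusted p = 0.0117). The sum of 6 T or NK cell genes was 14.32 and 13.51 CPM, 15.82 and 22.75 CPM, and 8.61 and 10.92 CPM, with Trac and Ncr1 at or under 3 counts in every library, and that of 7 monocyte or macrophage genes lay between 143.2 and 197.7 CPM. Both sums hide opposite calls at week 3 against naive mice. Nkg7 was higher and Cd3d lower (log2 1.60 and −1.98), and F13a1 was higher and Cx3cr1 lower (log2 2.39 and −1.59). The part of all these markers in the results below was not tested.

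The start regions of 5 members are shown, for the assembly factor and the activator that rose most between weeks 1 and 3 (Psmd9 and Psme4), for the catalytic subunits Psmb5 and Psmb6, and for the interferon-inducible activator Psme1. Each runs from 220 bases before the RefSeq start of the gene to 30 bases after it, 5′ to 3′ on the gene's own strand, in the RefSeq annotation of GRCm38.p6. Capitals mark TGACNNNGC, the core of the antioxidant response element bound by Nfe2l1 and Nfe2l2, and GAAA followed by another GAAA after any 2 bases, the core of the interferon response element, where they were found on either strand.
Psmd9, chr5:123227970-123228219, plus strand: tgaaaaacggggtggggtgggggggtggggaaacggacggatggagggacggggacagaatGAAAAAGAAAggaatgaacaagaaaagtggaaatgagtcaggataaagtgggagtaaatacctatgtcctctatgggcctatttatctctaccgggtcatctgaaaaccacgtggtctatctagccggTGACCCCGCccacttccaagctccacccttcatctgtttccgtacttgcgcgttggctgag
Psme4, chr11:30771555-30771804, plus strand: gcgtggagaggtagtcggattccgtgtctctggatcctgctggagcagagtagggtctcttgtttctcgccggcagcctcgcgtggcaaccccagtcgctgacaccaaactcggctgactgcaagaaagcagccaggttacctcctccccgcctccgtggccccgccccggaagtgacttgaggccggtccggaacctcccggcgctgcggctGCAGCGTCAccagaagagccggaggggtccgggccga
Psmb5, chr14:54617966-54618215, minus strand: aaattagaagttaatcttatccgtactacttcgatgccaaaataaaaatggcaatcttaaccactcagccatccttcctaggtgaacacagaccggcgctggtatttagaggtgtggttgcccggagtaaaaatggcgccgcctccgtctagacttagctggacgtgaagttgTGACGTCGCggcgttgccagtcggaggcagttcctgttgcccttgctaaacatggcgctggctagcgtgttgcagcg
Psmb6, chr11:70525137-70525386, plus strand: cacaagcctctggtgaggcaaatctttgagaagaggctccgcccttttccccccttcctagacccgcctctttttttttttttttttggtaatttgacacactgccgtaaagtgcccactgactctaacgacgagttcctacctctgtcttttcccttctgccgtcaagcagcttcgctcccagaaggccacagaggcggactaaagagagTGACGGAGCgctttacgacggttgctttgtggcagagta
Psme1, chr14:55578274-55578523, plus strand: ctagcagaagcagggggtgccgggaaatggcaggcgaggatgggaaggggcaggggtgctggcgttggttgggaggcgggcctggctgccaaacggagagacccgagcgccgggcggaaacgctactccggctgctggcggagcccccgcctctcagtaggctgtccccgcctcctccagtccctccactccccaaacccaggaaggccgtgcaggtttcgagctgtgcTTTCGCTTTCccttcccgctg

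Over the full windows of 300 bases, which were given for 39 members, TGACNNNGC was present in 6 members (15.4%) and in 14% of all 27025 genes with a window. The members were Psmb5, Psmb6, Psmc6, Psmd9, Psmd12 and Psme4. The interferon response core was present in 5 members (12.8%), namely Psmb3, Psmd4, Psmd9, Psme1 and Psmg4, and in 3.99% of all genes. CCAAT, the box bound by nuclear factor Y, was present in 14 members (35.9%) and in 41.1% of all genes. The shares were not tested, and a match of letters does not show that a factor binds.

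Across the whole set, levels stood higher at week 3 than in naive mice. The 47 members together amounted to 2331 and 2508 CPM in naive mice, 2554 and 2557 CPM at week 1, and 2999 and 2844 CPM at week 3, and the groups did not overlap. As a share of all counts, before scaling, they held 0.246% and 0.248% in naive mice, 0.273% and 0.268% at week 1, and 0.274% and 0.265% at week 3. On that measure both tumor groups lay above the naive libraries and overlapped each other.

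In neutrophils of 1-week LL2 mice, no member passed the threshold of an adjusted p under 0.05 against naive mice, with 0 called by edgeR and 0 by DESeq2. In the same test 4.23% of all genes were called higher and 3.76% lower. At an unadjusted p under 0.05 there were 12 members, 9 with a higher and 3 with a lower fitted level. Of all 12259 genes tested a similar share, 2849, was under that p, with 1501 higher and 1348 lower. The median log2 fold change of members was 0.14, a 1.1-fold difference, against 0.01 for all genes tested. Both week 1 libraries lay above both naive libraries for 22 of 46 members (47.8%), where the background was 27.2% of all genes, and both lay below for 10 members (21.7%), where it was 26.1%.

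In neutrophils of 3-week LL2 mice, 12 members rose and 1 fell against naive mice. These were 26.1% and 2.17% of the members tested, where 12% of all genes were called higher and 9.42% lower. The median log2 fold change of members was 0.29, or 1.22-fold, against 0.03 for all genes. For 30 members (65.2%) both week 3 libraries lay above both naive libraries and for 3 (6.52%) both lay below, where the background was 32.1% and 27.5%. Of the 12 that rose, 10 were particle subunits and the other two were the base assembly factors Psmd5 and Psmd9, and the member that fell was the core assembly factor Psmg2. With library totals alone as the scale, the split was 3 higher and 1 lower, where 890 and 1675 of all 12259 genes were called. The median of all genes then moved to −0.112 on the log2 scale. Relative to that median the members stood 0.26 higher under both scalings. A change of scale moves nearly all genes alike, so that this equality is no check on the rise.

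Between 3-week and 1-week LL2 mice, 11 members were higher at week 3 and 0 lower by edgeR, and DESeq2 called 8 higher and 0 lower. These were 23.9% of the members, where 12.9% of all genes were called higher and 9.57% lower. The median log2 fold change was 0.14, against −0.02 for all genes. Both week 3 libraries lay above both week 1 libraries for 27 members (58.7%) and below for 6 (13%), where the background was 31.5% and 32.3%. With library totals alone, 3 members were called higher and 4 lower (Psmc2, Psme1, Psme2 and Psmg2), where 856 and 2136 of all 12259 genes were called. The median of all genes then moved to −0.225, and members stood 0.16 above that median under both scalings. That equality, too, follows from the change of scale and is no check. Of the 46 members, 4 had an unadjusted p under 0.05 with a lower level at week 3 in the TMM-scaled test. Of all 12259 genes tested, 2023 did.

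**Figure D1:**
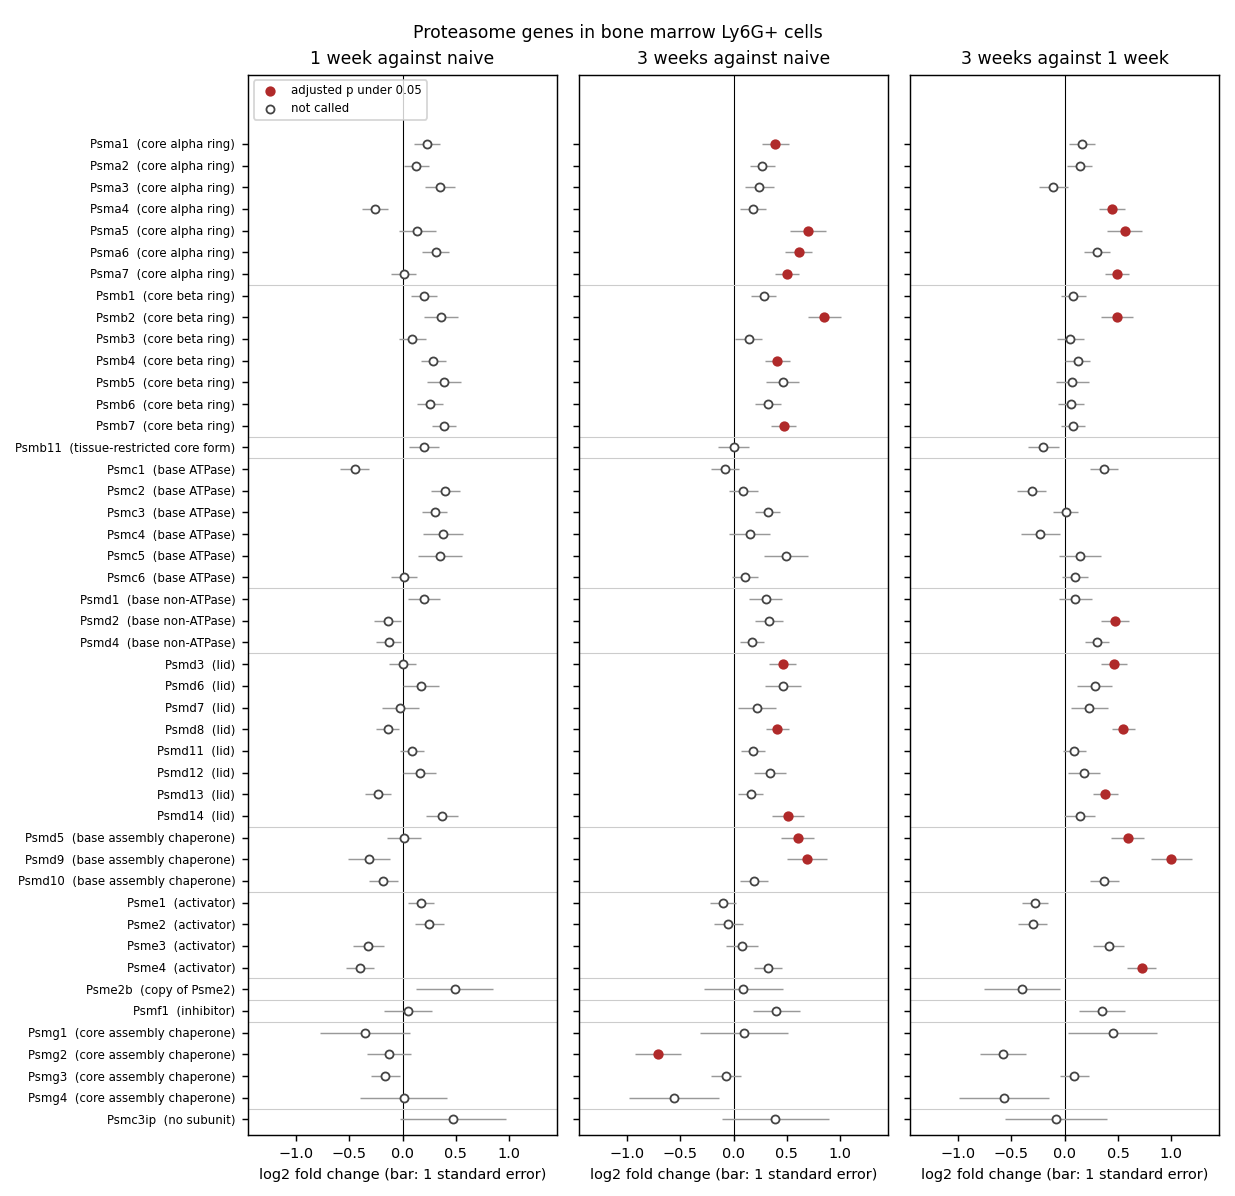
Log2 fold changes of the 46 tested members in the 3 comparisons, ordered by role, with bars of 1 standard error and filled red points for an adjusted p under 0.05. No point is filled for week 1 against naive mice, 13 are filled for week 3 against naive mice (12 to the right of 0 and Psmg2 to the left), and 11 are filled for week 3 against week 1.

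Single libraries weighed on these counts. In each case given here, leaving out a library also lowered the number of all genes called higher. Against naive mice, 4 members were called higher at week 3 without naive replicate 1, 7 without naive replicate 2 and 3 without week 3 replicate 1. Against week 1, 3 were called without week 1 replicate 1, 3 without week 1 replicate 2 and 4 without week 3 replicate 1. Psma6, Psma7, Psmb2 and Psmd14 were still called higher than in naive mice without naive replicate 1, and Psma5, Psma6 and Psmb2 without week 3 replicate 1. Without naive replicate 2, the calls of Psma6, Psma7, Psmb2, Psmb4, Psmb7 and Psmd8 stayed and Psmb5 was added. Without either week 1 library, whose spread enters the shared model, Psma1, Psmb4 and Psmd14 lost their calls. The fall of Psmg2 was lost without either naive library and without either week 3 library. Against week 1, the calls that stayed without either week 1 library were those of Psmd8, Psmd9 and Psme4, and Psma4 stayed with them without week 3 replicate 1, while Psmb2 was lost without naive replicate 1. The highest edgeR adjusted p of a member over all its alternatives was 0.221 among those called higher than in naive mice and 0.273 among those called against week 1. Without week 3 replicate 2, whose erythroid sum stood apart, 13 members were called higher than in naive mice (Psma1 and Psmd8 were lost, and Psmb5, Psmc5 and Psmd6 were added) and 9 higher than at week 1 (Psma4 and Psma5 were lost).

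In the alpha ring, which forms the gate through which substrates enter the core, 4 of 7 members rose at week 3 against naive mice. Both week 3 libraries lay above both naive libraries for each of the 7. Of all genes, 12% were called higher and 32.1% had their libraries so placed. Psma5 had 9.81 and 9.25 CPM in naive mice, 10.1 and 11 CPM at week 1, and 15.4 and 15.7 CPM at week 3. It was 1.63-fold higher at week 3 than in naive mice (log2 0.70 ± 0.17 SE, edgeR adjusted p = 0.0102) and 1.48-fold higher than at week 1 (edgeR adjusted p = 0.0276). The week 3 libraries of Psma5 thus stood apart from 4 libraries that lay close together. Psma6 had 27.3 and 27.7 CPM, 33.8 and 34.2 CPM, and 41.8 and 41.8 CPM in the same order. It rose 1.52-fold at week 3 (log2 0.61 ± 0.13 SE, edgeR adjusted p = 0.00382), while the difference between weeks 3 and 1 did not pass (edgeR adjusted p = 0.0993). For Psma6 each group lay above the one before it, and its call at week 3 against naive mice held under all 13 alternatives.

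Psma7 had 105 and 101 CPM in naive mice, 101 and 107 CPM at week 1, and 154 and 138 CPM at week 3. It was 1.41-fold higher at week 3 than in naive mice (edgeR adjusted p = 0.00783) and 1.4-fold higher than at week 1 (edgeR adjusted p = 0.00797), and naive and week 1 libraries overlapped. Psma1 had 43.4 and 42.2 CPM, 54 and 46.6 CPM, and 57.2 and 55.4 CPM. Its rise at week 3 was close to the threshold (1.31-fold, edgeR adjusted p = 0.0398) and was lost under 12 of 13 alternatives.

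Psma4 moved otherwise. It had 40.7 and 39.5 CPM in naive mice, 33.5 and 33.7 CPM at week 1, and 43.3 and 47.6 CPM at week 3, and was 1.35-fold higher at week 3 than at week 1 (edgeR adjusted p = 0.0223), with week 1 as the lowest group. Psma2 lay between 193 and 259 CPM and Psma3 between 36.7 and 49.5 CPM, and neither was called in any comparison.

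In the beta ring, which holds the proteolytic sites, 3 of 7 members rose at week 3 against naive mice, where 12% of all genes did. Psmb2, a structural subunit without a proteolytic site, changed most. It had 12.6 and 11.7 CPM in naive mice, 15.8 and 15.4 CPM at week 1, and 23.4 and 20.5 CPM at week 3, without overlap between the 3 groups. At week 3 it was 1.81-fold higher than in naive mice (log2 0.85 ± 0.16 SE, edgeR adjusted p = 0.00182), a call that held under all 13 alternatives, and 1.41-fold higher than at week 1 (edgeR adjusted p = 0.0336).

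Psmb7, which carries the trypsin-like site, had 51 and 50.8 CPM in naive mice, 66.6 and 67 CPM at week 1, and 71.7 and 69.4 CPM at week 3. Both tumor groups stood above the naive libraries. The difference passed at week 3 (1.39-fold, log2 0.47 ± 0.12 SE, edgeR adjusted p = 0.0113) and fell just short at week 1 (1.31-fold, log2 0.39 ± 0.12 SE, edgeR adjusted p = 0.0557). Exons of Psmb7 share 405 bases with Nek6 on the other strand, and Nek6 had between 3.14 and 10.8 CPM.

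Psmb5, the subunit with the chymotrypsin-like site that proteasome inhibitors such as bortezomib bind, had 57 and 74.8 CPM in naive mice, 84.5 and 88.1 CPM at week 1, and 103 and 78.6 CPM at week 3. Its libraries spread more widely within the naive and week 3 groups than those of Psmb7, and 109 of its exonic bases are also annotated as the microRNA Mir686. The log2 fold change at week 3 against naive mice was 0.46 ± 0.16 SE and missed the threshold (edgeR adjusted p = 0.0514), and at week 1 it was 0.39 ± 0.16 SE (edgeR adjusted p = 0.148). Psmb6, which carries the caspase-like site, had 56.7 and 64.8 CPM, 69.9 and 75.4 CPM, and 77.4 and 74.1 CPM. It was not called at week 3 against naive mice (log2 0.32 ± 0.12 SE, edgeR adjusted p = 0.0837).

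Psmb4, a structural beta subunit, had 142 and 162 CPM in naive mice, 180 and 190 CPM at week 1, and 207 and 196 CPM at week 3, and rose 1.33-fold at week 3 (edgeR adjusted p = 0.0231). Psmb1 lay between 71.1 and 94.4 CPM and Psmb3 between 135 and 172 CPM, and neither was called. Between weeks 3 and 1, Psmb2 was the beta subunit that passed the threshold, and the libraries of Psmb3, Psmb5, Psmb6 and Psmb1 overlapped. The pseudogenes Psmb5-ps, Psmb6-ps and Psmb7-ps2 had at most 7 counts in a library.

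Psmb11, the thymus form of the catalytic subunit, had between 24.4 and 31.4 CPM and was not called in any comparison. Its annotated gene begins at position 54621433 of chromosome 14, well before the RefSeq start, which lies in the window from 54625060 to 54625359, and gene-level counts do not show which part of the gene the reads came from.

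**Figure D2:**
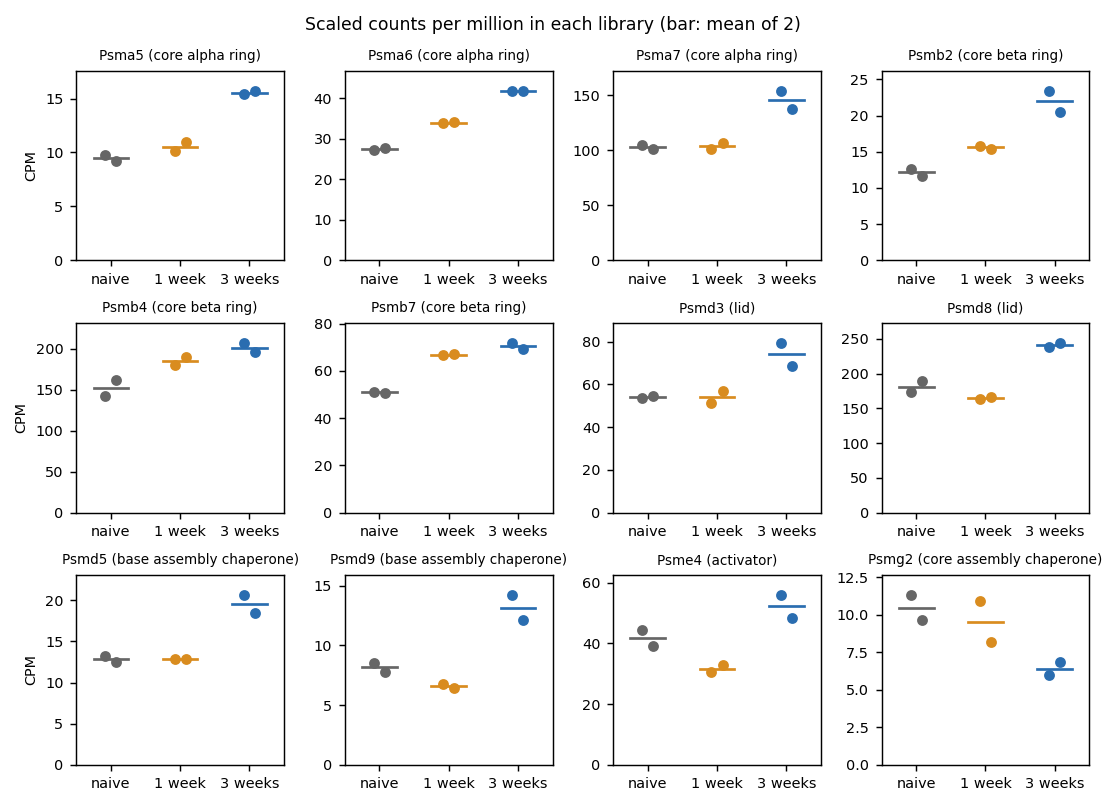
CPM in each of the 2 libraries per group (points) and their mean (bars) for 12 members chosen from those called. The week 3 points of Psma5, Psma6, Psma7, Psmb2, Psmd3, Psmd8, Psmd5, Psmd9 and Psme4 lie above all naive and week 1 points, those of Psmb4 and Psmb7 also do so by a smaller distance, and those of Psmg2 lie below.

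The base ATPases form the ring that unfolds and threads substrates. Of these 6, 0 passed the threshold in any of the 3 comparisons with edgeR and 0 with DESeq2. Of all genes, edgeR called 4.23% higher and 3.76% lower at week 1 against naive mice. The shares were 12% and 9.42% at week 3, and 12.9% and 9.57% between weeks 3 and 1. Under some alternatives given below, Psmc1 was called lower at week 1. With library totals alone, Psmc2 was called lower at week 3 than at week 1. At an unadjusted p under 0.05 there were 3 at week 1 and 2 at week 3 against naive mice, and 2 between weeks 3 and 1. Of all 12259 genes tested, 2849, 4146 and 4302 were under that p in the same comparisons. Psmc1 had 35.3 and 39.9 CPM in naive mice, 28.8 and 26.3 CPM at week 1, and 35.7 and 35.4 CPM at week 3. Its week 1 libraries lay below all the others, with a log2 fold change of −0.45 ± 0.13 SE against naive mice that fell just short (edgeR adjusted p = 0.0555). Psmc2 went the other way, with 22.9 and 22.5 CPM, 31.2 and 28.9 CPM, and 24.9 and 23.6 CPM. Its week 1 libraries lay above all the others (log2 0.40 ± 0.14 SE, edgeR adjusted p = 0.0857). Psmc3, Psmc4, Psmc5 and Psmc6 were not called, at levels from 8.78 CPM for Psmc4 to 86 CPM for Psmc3.

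The other members of the base are the scaffolds Psmd1 and Psmd2 and the ubiquitin receptor Psmd4. Psmd2 had 56.7 and 61.2 CPM in naive mice, 53.4 and 53.6 CPM at week 1, and 80.9 and 67.2 CPM at week 3. It was 1.38-fold higher at week 3 than at week 1 (log2 0.47 ± 0.13 SE, edgeR adjusted p = 0.0184) and not called against naive mice (edgeR adjusted p = 0.0862). Psmd1 lay between 17.8 and 24.9 CPM and Psmd4 between 71.2 and 93.2 CPM, without a call.

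In the lid, 3 of 8 members rose at week 3 against naive mice (Psmd3, Psmd8 and Psmd14) and 3 against week 1 (Psmd3, Psmd8 and Psmd13). The shares of all genes called higher were 12% and 12.9%. Psmd8, a lid scaffold, had 174 and 189 CPM in naive mice, 163 and 166 CPM at week 1, and 239 and 244 CPM at week 3. Week 3 lay above both other groups and week 1 below naive mice. The difference between weeks 3 and 1 was 1.47-fold (log2 0.55 ± 0.11 SE, edgeR adjusted p = 0.00279) and held under all 13 alternatives, and that against naive mice was 1.33-fold (edgeR adjusted p = 0.0168).

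Psmd3, another scaffold of the lid, had 53.4 and 54.5 CPM, 51.1 and 56.8 CPM, and 79.3 and 68.8 CPM. Naive and week 1 libraries overlapped and week 3 was 1.37-fold above either (edgeR adjusted p = 0.0202 against naive mice and 0.019 against week 1). Psmd14, the deubiquitinase of the lid, had 27.8 and 22.8 CPM, 33.2 and 32.2 CPM, and 39.5 and 32.6 CPM. Its rise was 1.42-fold against naive mice (log2 0.51 ± 0.15 SE, edgeR adjusted p = 0.0273), and its week 3 libraries overlapped those of week 1.

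Psmd13 had 171 and 192 CPM in naive mice, 155 and 155 CPM at week 1, and 217 and 187 CPM at week 3. It was called between weeks 3 and 1 (1.3-fold, edgeR adjusted p = 0.0347), where week 1 was the lowest group, and its week 3 libraries overlapped the naive ones. Psmd6, Psmd7, Psmd11 and Psmd12 were not called. They ranged from 14.1 CPM, in Psmd7, to 181 CPM, in Psmd11.

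Assembly factors hold unfinished parts of the particle until they join. Of the 3 base chaperones, 2 rose at week 3 against both other groups. Against naive mice and week 1, 12% and 12.9% of all genes were called higher. Psmd9 had 8.55 and 7.78 CPM in naive mice, 6.74 and 6.41 CPM at week 1, and 14.2 and 12.1 CPM at week 3. It was 1.99-fold higher at week 3 than at week 1 (log2 1.00 ± 0.19 SE, edgeR adjusted p = 0.00227), with the call held under all 13 alternatives, and 1.61-fold higher than in naive mice (log2 0.69 ± 0.19 SE, edgeR adjusted p = 0.0203). No other member had a larger fold change between weeks 3 and 1. Exons of Psmd9 share 1849 of 7248 bases with Gm26745 on the other strand, and since the sources used here do not say whether counting used the strand, reads in that stretch cannot be assigned with certainty. Gm26745 itself was at or near 0 in all 6 libraries. The annotated Psmd9 gene begins at position 123169413 of chromosome 5, well before the start region shown above (123227970 to 123228219). Gene-level counts do not show which part of Psmd9 the reads came from.

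Psmd5 had 13.2 and 12.5 CPM, 12.9 and 12.9 CPM, and 20.6 and 18.4 CPM. It was 1.51-fold higher at week 3 than in either other group (edgeR adjusted p = 0.0168 against naive mice and 0.0158 against week 1), and naive and week 1 libraries overlapped. Psmd10, also known as gankyrin, lay between 39.8 and 56.7 CPM and was not called.

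The core chaperones Psmg1 to Psmg4, which pair up to guide the alpha ring, had no member that rose. At week 3, 12% of all genes were called higher than in naive mice and 12.9% than at week 1. Psmg2 had 11.3 and 9.66 CPM in naive mice, 10.9 and 8.2 CPM at week 1, and 5.97 and 6.84 CPM at week 3. Its week 3 libraries were the lowest of the 6, and it fell by 0.71 on the log2 scale against naive mice (± 0.22 SE, edgeR adjusted p = 0.0318). The difference between weeks 3 and 1 did not pass (log2 −0.58 ± 0.21 SE, edgeR adjusted p = 0.0706). Its partner Psmg1 lay between 1.47 and 2.77 CPM and Psmg4 between 1.63 and 3.27 CPM, levels at which the standard error of a log2 fold change was over 0.4. Psmg3 lay between 37.4 and 46.8 CPM. None of these 3 was called.

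The activators differed from each other. Psme4, a large single-chain activator known from sperm and from DNA repair, had 44.5 and 39.1 CPM in naive mice, 30.6 and 32.7 CPM at week 1, and 55.8 and 48.5 CPM at week 3. The 3 groups did not overlap, and week 1 was the lowest. It was 1.65-fold higher at week 3 than at week 1 (log2 0.72 ± 0.13 SE, edgeR adjusted p = 0.00175), and that call held under all 13 alternatives. Against naive mice it was called neither at week 1 (log2 −0.40 ± 0.13 SE, edgeR adjusted p = 0.0851) nor at week 3 (log2 0.32 ± 0.13 SE, edgeR adjusted p = 0.105).

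Psme3, the nuclear activator, had 31.6 and 25.4 CPM, 21.4 and 24.1 CPM, and 30.8 and 29.5 CPM. Its week 1 libraries were also the lowest, but no comparison passed (edgeR adjusted p = 0.0667 between weeks 3 and 1). Psme1 and Psme2, whose products join into the interferon-inducible activator, stood highest at week 1. Psme1 had 43.3 and 44.2 CPM, 51.2 and 47.5 CPM, and 39.7 and 41.8 CPM. Psme2 had 90.6 and 117 CPM, 130 and 116 CPM, and 96.6 and 104 CPM. Between weeks 3 and 1 their log2 fold changes were −0.28 ± 0.12 SE and −0.30 ± 0.14 SE, and neither passed the threshold with TMM scaling (edgeR adjusted p = 0.122 and 0.14). The summed eosinophil, basophil or mast cell genes were also highest at week 1, at 41.05 and 44.97 CPM, although Siglecf of that list was lowest then. The part of these genes in Psme1 and Psme2 was not tested.

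Psme2b had between 3.27 and 9.35 CPM, and because its sequence is close to that of Psme2, the split of reads between them is uncertain. The inhibitor Psmf1 had 5.3 and 6.79 CPM in naive mice, 6.07 and 6.41 CPM at week 1, and 7.91 and 8 CPM at week 3. Its week 3 libraries lay above the other 4, without passing the test (edgeR adjusted p = 0.233 against naive mice). Psmc3ip stayed at or below 1.69 CPM. Its exons share 385 bases with Mlx on the other strand, which had between 39.3 and 58.9 CPM. Of the called members not yet named for this, Psma4, Psma5, Psmd3 and Psmd13 share at most 342 bases with genes on the other strand, none of which exceeded 3.4 CPM.

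Subunits that are present in equal numbers in the particle had unequal RNA levels. Per kilobase of exon, as RPKM, the alpha subunits of naive mice ranged from 7.22 for Psma5 to 57.3 for Psma2, a 7.94-fold span. The beta subunits ranged from 10.1 for Psmb2 to 77.9 for Psmb4, or 7.71-fold, the ATPases from 4.52 for Psmc2 to 25 for Psmc3, or 5.53-fold, and the lid from 5.53 for Psmd12 to 59.3 for Psmd8, or 10.7-fold. At week 3 the spans in RPKM were 6.12-fold, 5.63-fold, 6.45-fold and 11.3-fold. With the longest coding transcript as the length, the lowest member of the alpha ring, the beta ring and the lid was the same in naive mice, but the lowest ATPase was Psmc4 and the highest alpha and beta subunits were Psma7 and Psmb3.

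**Figure D3:**
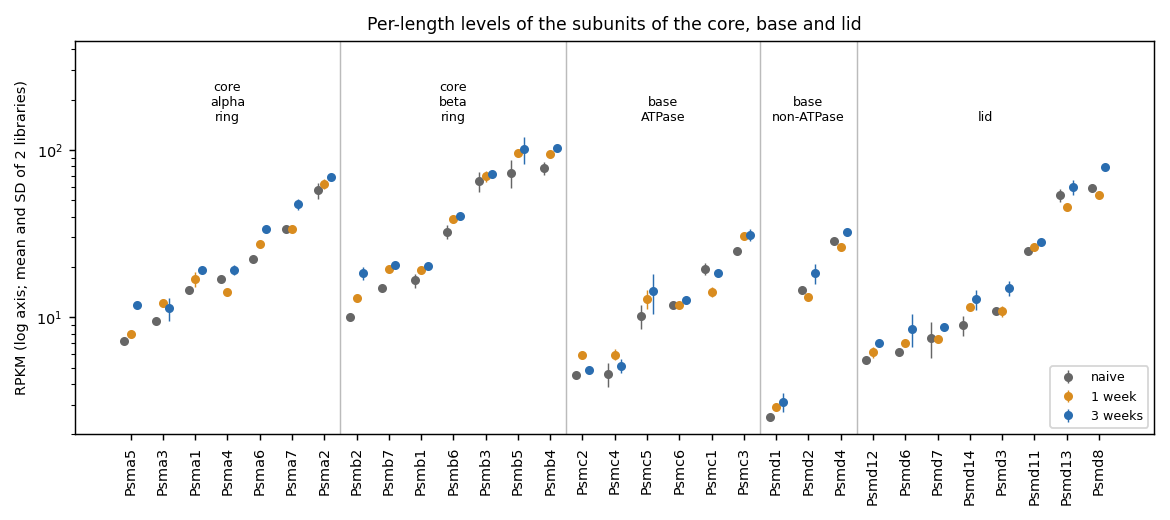
Levels per kilobase of exon (RPKM, log axis) of the 31 particle subunits, as mean and SD of the 2 libraries of each group. In naive mice they span from 2.54 for Psmd1 to 77.9 for Psmb4, and Psma5 and Psmb2 sit at the low end of their rings.

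The standard catalytic subunits were set beside the immunoproteasome forms that replace them. Psmb8 had 66.1 and 73.8 CPM in naive mice, 101 and 94.3 CPM at week 1, and 68.2 and 70.1 CPM at week 3. It was 1.39-fold higher at week 1 than in naive mice (log2 0.48 ± 0.12 SE, edgeR adjusted p = 0.0262) and lower at week 3 than at week 1 (log2 −0.50 ± 0.12 SE, edgeR adjusted p = 0.00883). Its rise was thus seen at week 1 and not at week 3, where its libraries overlapped the naive ones. The week 1 call was lost without naive replicate 1 and without either week 1 library, with an edgeR adjusted p of at most 0.193, and that between weeks 3 and 1 without week 1 replicate 1 and without week 3 replicate 1 (at most 0.0649).

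Psmb10 had 11 and 15.1 CPM in naive mice, 17 and 14.8 CPM at week 1, and 8.69 and 7.92 CPM at week 3. At week 3 it was lower than in naive mice (log2 −0.65 ± 0.20 SE, edgeR adjusted p = 0.0325) and lower than at week 1 (log2 −0.94 ± 0.20 SE, edgeR adjusted p = 0.0038), and the second call held under all 13 alternatives, while the first was lost without naive replicate 2 and without either week 3 library (edgeR adjusted p of at most 0.254). Psmb9 had 104 and 134 CPM, 127 and 113 CPM, and 116 and 156 CPM, with overlap between all groups and no call. B lineage genes were also lower at week 3, as given above, and whether they bear on Psmb10 was not tested. Nor was the part of the eosinophil, basophil or mast cell genes in the Psmb8 result tested, though their summed level was highest at week 1 as well (41.05 and 44.97 CPM, and between 17.45 and 26.11 CPM in the other 4 libraries). Siglecf, of that list, was instead lowest at week 1.

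As a log2 ratio of RPKM, Psmb7 over Psmb10 was 1.21 and 0.74 in naive mice, 0.96 and 1.17 at week 1, and 2.04 and 2.13 at week 3. Week 3 lay above the other 4 libraries by more than their spread. Psmb5 over Psmb8 was 1.70 and 1.93, 1.66 and 1.81, and 2.50 and 2.08, again highest at week 3. Psmb6 over Psmb9 was 0.10 and −0.08, 0.11 and 0.38, and 0.38 and −0.11, with overlap between groups. The height of each ratio depends on the gene length used. A length shifts a ratio alike in all libraries, so that the order of the groups cannot change and is no check. No test was run on the ratios.

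**Figure D4:**
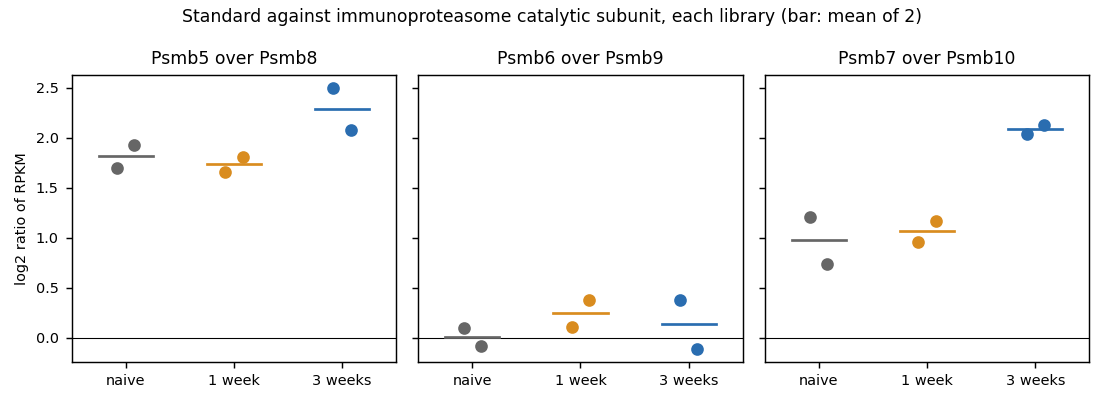
Log2 ratio of RPKM of each standard catalytic subunit to its immunoproteasome form, for each library (points) with the mean of 2 (bars). Week 3 libraries are highest for Psmb5 over Psmb8 and for Psmb7 over Psmb10, at 2.04 and 2.13 for the latter, and the groups overlap for Psmb6 over Psmb9.

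Genes that work with the proteasome came from a planned list. Without Paaf1, which was planned but has no values here, it held 36 genes, all of them tested. Against naive mice, 1 was higher (2.78%) and 4 were lower (11.1%) at week 1, where 4.23% and 3.76% of all genes were called. At week 3, 7 were higher (19.4%) and 2 lower (5.56%), where 12% and 9.42% of all genes were called. Between weeks 3 and 1, 9 were higher (25%) and 0 lower by edgeR, where 12.9% and 9.57% of all genes were called. At an unadjusted p under 0.05 there were 11, all higher, where 2279 of all 12259 genes were higher and 2023 lower. DESeq2 called 8 higher and 0 lower. The median log2 fold change of the list was −0.06, 0.08 and 0.22 in the 3 comparisons, against 0.01, 0.03 and −0.02 for all genes. Between weeks 3 and 1, 4 were higher without week 1 replicate 1 and 5 without week 1 replicate 2. At week 1, 2 were lower without naive replicate 1, 1 without week 1 replicate 1 and 2 without week 1 replicate 2, and 0 were higher when any 1 of the naive and week 1 libraries was left out. At week 3 against naive mice, 0 were lower without naive replicate 1 and without week 3 replicate 2, and 1 without naive replicate 2 and without either week 1 library. The week 3 calls of Ddi2, Zfand5, Rps27a and Bach1 held in both comparisons under all 13 alternatives.

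Ddi2, the protease that releases the transcription factor Nfe2l1 to activate proteasome genes, had 51.4 and 49.7 CPM in naive mice, 31.2 and 40.3 CPM at week 1, and 188 and 161 CPM at week 3. It was 3.45-fold higher at week 3 than in naive mice (log2 1.79 ± 0.14 SE, edgeR adjusted p = 2.96e-06) and 4.88-fold higher than at week 1 (log2 2.29 ± 0.15 SE, edgeR adjusted p = 4.85e-07). Nfe2l1 itself had between 22.8 and 30.2 CPM and Nfe2l2, the master regulator of the antioxidant response, between 81.4 and 110 CPM, and neither was called in any comparison. Bach1, a repressor that competes at antioxidant response elements, had 65 and 60.3 CPM, 41.6 and 41.5 CPM, and 87.8 and 93.6 CPM. It was lower at week 1 (log2 −0.59 ± 0.12 SE, edgeR adjusted p = 0.0107) and higher at week 3 (log2 0.53 ± 0.12 SE, edgeR adjusted p = 0.00595) than in naive mice. Mafg, a small Maf partner of these factors, was lower at week 3 (log2 −0.38, edgeR adjusted p = 0.0334). This call was lost under 3 of 13 alternatives, and so was that of Bach1 at week 1.

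Zfand5, which stimulates the proteasome, had 130 and 130 CPM in naive mice, 138 and 128 CPM at week 1, and 240 and 231 CPM at week 3, a 1.81-fold rise (log2 0.86 ± 0.11 SE, edgeR adjusted p = 0.000146). Sem1, the small lid subunit that the naming rule leaves out, had 443 and 462 CPM, 681 and 560 CPM, and 697 and 631 CPM. It rose 1.37-fold at week 1 (edgeR adjusted p = 0.0381) and 1.47-fold at week 3 (edgeR adjusted p = 0.00619). These calls were lost under 4 and 1 of 13 alternatives. Adrm1, a ubiquitin receptor outside the rule, lay between 28.9 and 34.6 CPM without a call. Pomp, the core maturation factor, had 164 and 146 CPM, 148 and 148 CPM, and 209 and 185 CPM. It was higher at week 3 than at week 1 (1.33-fold, edgeR adjusted p = 0.0212), a call lost under 4 of 13 alternatives. Its call against naive mice (edgeR adjusted p = 0.049) was lost under 11 of 13.

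Rps27a, which encodes ubiquitin fused to a ribosomal protein, had 92.1 and 94.9 CPM in naive mice, 56.3 and 55.8 CPM at week 1, and 132 and 147 CPM at week 3, and was called lower at week 1 (edgeR adjusted p = 0.00279) and higher at week 3 (edgeR adjusted p = 0.00289). Genes of ribosomal proteins have many processed copies in the genome, so that its counts are uncertain. Vcp, which extracts ubiquitin-tagged proteins, and the shuttle receptor Rad23b were higher at week 3 than at week 1, by 1.32-fold (edgeR adjusted p = 0.0194) and 1.34-fold (edgeR adjusted p = 0.0383). The call of Vcp was lost under 4 of 13 alternatives and that of Rad23b under 7, DESeq2 among them.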

How the data were processed

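Ly6G+ bone marrow cells of 3 groups of mice were sequenced, with 2 libraries per group. The authors isolated the cells with Ly6G beads and prepared libraries with a total RNA kit, and the labels name Bowtie2 and RSEM 1.2.31 on mm10 (the methods give another RSEM version, and labels and methods differ on read length). The values deposited by the authors are expected counts for each gene, given as whole numbers and not scaled between libraries, so that rounding changed none. Whether counting used the strand is not given in the sources used here. The methods describe groups of 3, and the 2 samples per group that the labels give were analysed.

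Identifiers were matched to GENCODE M21 on GRCm38, the build called mm10, with 37570 of 38887 matched. Counts were filtered by filterByExpr, scaled by TMM (factors 0.9134 to 1.072) and compared by edgeR 4.0.16 (quasi-likelihood test, R 4.3.3) in a single model of the 6 libraries, with Benjamini-Hochberg adjustment over 12259 genes and calls at an adjusted p under 0.05. RPKM is CPM per kilobase of the union of exons. Promoter windows came from RefSeq on GRCm38.p6, and 39 of 47 members matched. The test was checked on simulated counts.

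The members and gene lists were chosen with earlier results of these data known. Named with values were members called in a comparison, the catalytic subunits, activators, inhibitor, assembly factors, immunoproteasome subunits, and called genes of the partner list with Nfe2l1, Nfe2l2, Adrm1, Sem1 and Pomp. Some called genes of the partner list are counted but not reported here. Other members are given by ranges, except Psmc1, Psmc2, Psmb11 and Psma8, which were added after their values were seen. Alternatives were DESeq2 1.42.0, its size factors, library size alone, the compared groups alone, no filter, offsets for length and GC content (mgcv 1.9.3), a block for the replicate number and each library left out. Replicates of a group differed beyond sampling noise (chi-square over its degrees of freedom, 8.34 to 11.4). P-values measure the spread between these 2 libraries per group.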

Additional observations from a re-analysis of the deposited data

Results flagged for a closer look

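The change from naive mice differed between weeks 1 and 3 for 11 members, as the direct comparison of week 3 with week 1 by edgeR's quasi-likelihood test found. The log2 fold change of week 3 over week 1 was 1.00 for Psmd9 and 0.72 for Psme4. It was 0.59 for Psmd5 and 0.55 for Psmd8. For the alpha subunits Psma5, Psma7 and Psma4 it was 0.56, 0.49 and 0.44, and for the beta subunit Psmb2 it was 0.49. For Psmd2, Psmd3 and Psmd13 it was 0.47, 0.46 and 0.38. Of these 11 calls, 8 were lost when some library was left out, and those of Psmd8, Psmd9 and Psme4 held under all 13 alternatives. The changes at weeks 1 and 3 share the naive libraries.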

How the results depend on the processing

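At week 3 against naive mice, 2 of 13 member calls (Psma6 and Psmb2) held under all 13 alternatives, and between weeks 3 and 1 3 of 11 did, and 11 and 8 calls were lost when some library was left out. With library size alone, members called higher numbered 1, 3 and 3 in the order week 1 and week 3 against naive mice and week 3 against week 1, 4 were lower in the last, partners higher in it numbered 4, and the median log2 fold changes of members were 0.19, 0.14 and −0.06. Of all 12259 genes, 575, 890 and 856 were then called higher in the same order, and 2136 were called lower in the last. In the last comparison Psmb5, Psmb6, Psmb7 and Psmb9 then turned to −0.13, −0.14, −0.12 and −0.02, and Psme3 at week 3 against naive mice to −0.07. With DESeq2 8 members were called higher at week 3 against naive mice and 0 lower, the week 1 median was 0.11, and Psmb9 at week 1 turned to −0.01, as it did with DESeq2's size factors, where 1 member (Psmc1) was lower at week 1. On the compared groups alone and without a filter, the week 3 median against naive mice was 0.26, and without a filter that against week 1 was 0.11. On the compared groups alone 1 partner was lower at week 3 against naive mice. With offsets for length and GC content, 1 member (Psmc1) was lower at week 1, the medians were 0.06 at week 1 and 0.21 between weeks 3 and 1, Psmb9 at week 1 turned to −0.04, and 16 members were higher between weeks 3 and 1.

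With 1 library left out, members higher at week 3 numbered 3 to 13 against naive mice and 3 to 11 against week 1, and members lower at week 3 against naive mice 0 to 1. Partners higher numbered 0 to 1 at week 1 and 4 to 9 between weeks 3 and 1, and partners lower 1 to 5 at week 1 and 0 to 2 at week 3 against naive mice. The medians of members lay between 0.10 and 0.14, 0.24 and 0.33, and 0.10 and 0.24. At week 1, Psmg2 lay between −0.36 and 0.05 and Psmb9 between −0.16 and 0.21. At week 3 against naive mice, Psme2 lay between −0.26 and 0.15, Psme3 between −0.06 and 0.22, Psmb8 between −0.13 and 0.07 and Psmb9 between −0.03 and 0.40. Between weeks 3 and 1, Psmb5 lay between −0.12 and 0.26, Psmb6 between −0.02 and 0.10 and Psmb9 between −0.04 and 0.39. A group left with 1 library was assumed to vary like the others. Fewer of all genes were then called higher at week 3 against naive mice, whichever library was left out. Against week 1 this held except without naive replicate 2.

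Replicate numbers denote different mice and did not pair the samples, with correlations of 0.01, 0.036 and 0.038 between same-numbered samples. A replicate block left 12 and 11 members higher at week 3 and 1 partner lower at week 3 against naive mice.

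With the longest coding transcript as the length, the mean log2 ratio in naive, week 1 and week 3 libraries was 0.76, 0.68 and 1.24 for Psmb5 over Psmb8, −0.20, 0.04 and −0.07 for Psmb6 over Psmb9, and 2.16, 2.25 and 3.27 for Psmb7 over Psmb10, and the beta ring spanned 13.9-fold in naive mice. The other length moves each ratio alike in all libraries, so that the kept order of the groups is no check. The causes of the other shifts with processing were not tested. At levels of a few CPM, the standard errors of log2 fold changes of Psmg1, Psmg4, Psme2b and Psmc3ip lay between 0.357 and 0.503. Changes of that size, and changes well above it, could therefore be missed.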
